A study of Rattus norvegicus with 4 samples.

Results

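The constitutive proteasome was examined in NR8383 cells, a line of rat alveolar macrophages, the resident phagocytes of the airspaces, after exposure to the mixed nickel, zinc and iron oxide NiZnFe2O4. The 34 genes were taken from a fixed list of subunit symbols: 7 core alpha subunits, 7 core beta subunits, 6 regulatory ATPases, 11 non-ATPase regulatory subunits and 3 activators, with the immunoproteasome catalytic subunits left out. All 34 had a probe whose RefSeq accession mapped to the symbol, with 36 probes and 77 spots on each array, among 16581 genes with a symbol. There was 1 group of 4 biological replicates, each with 1 one-colour Agilent array. Its cells had been passaged 20 times and received 9.25 µg/mL NiZnFe2O4 for 4 h. The study set exposed cells against unexposed cells, but arrays of unexposed cells were not analysed here. The values below therefore give the level of each transcript in exposed cells and its spread between replicates, and no value shows a change caused by the exposure.

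The proteasome is the main protease of the cytosol and nucleus and degrades proteins that carry ubiquitin chains. Its core particle is a barrel in which the alpha subunits form the outer rings and the gate, and the beta subunits form the inner rings with the proteolytic sites facing the cavity. The regulatory particle caps the barrel: its ATPases unfold substrates and push them into the core, and its non-ATPase subunits bind ubiquitin chains, remove them and hold the particle together. The activators Psme1, Psme2 and Psme3 form a different cap that opens the gate without ATP. In macrophages the proteasome also supplies peptides for antigen presentation and degrades inhibitors of inflammatory signalling.

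Between 21812 and 24981 of the 58717 non-control spots of an array were well above background, and none was saturated. Across genes, which are not independent replicates, any pair of arrays correlated with a Pearson's r of 0.975 to 0.986 over the 6418 genes above background and of 0.964 to 0.992 over the 34 proteasome genes. Of 10 macrophage markers 7 passed the scanner software's flag for a signal well above background on each array, while Marco, Cd163 and Adgre1 passed on no array. Of the 16581 genes with a symbol, 38.7% passed on each array and 8529 on none. None of 6 lung epithelial markers, of 3 measured granulocyte markers or of 3 measured lymphocyte markers passed on all arrays, and of 5 fibroblast and endothelial markers only Cdh5 did.

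Transcripts of all 34 proteasome genes gave a signal well above background on each of the 4 arrays, so none was lost to the filter on dim probes. The same held for 38.7% of all genes with a symbol. The count was also 34 with a looser flag, a positive and significant signal (50.9% of all genes), and with 3 of 4 arrays required (41.5%). Neither rule could lower the count. It was 34 as well with every probe of a gene required (33.2%). The count was 7 of 7 for the core alpha subunits, 7 of 7 for the core beta subunits, 6 of 6 for the ATPases, 11 of 11 for the non-ATPase subunits and 3 of 3 for the activators. In the processed signal of the scanner software, the members ran from 48.6 intensity units for Psmc6 on replicate 4 to 10804 units for Psmb4 on replicate 1. Signal is averaged over the cells of a flask, so fewer cells with a transcript and less of it per cell cannot be told apart.

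Levels are given from here on as the log2 signal minus the 75th percentile over all probes of the same array. On this scale the mean level ran from 1.17 for Psmc6 to 8.11 for Psmb4. These levels do not rank the genes, since a signal depends on the probe as well as on the transcript. Psmc1 shows how far: its 2 probes for 1 accession stood at 7.38 ± 0.12 and 4.85 ± 0.07 (SD, n = 4 each). What can be read from these data is whether each transcript was present and how it varied from array to array. The median SD over the 34 genes was 0.20 log2 units and 0.23 over the 6418 genes above background. Those 6418 genes were dimmer, with a median level of 2.7 against 5.54 for the 34. Over the 569 genes above background with levels of 5.71 to 8.11, the range of the core beta genes, the median SD was 0.18.

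**Figure D1:**
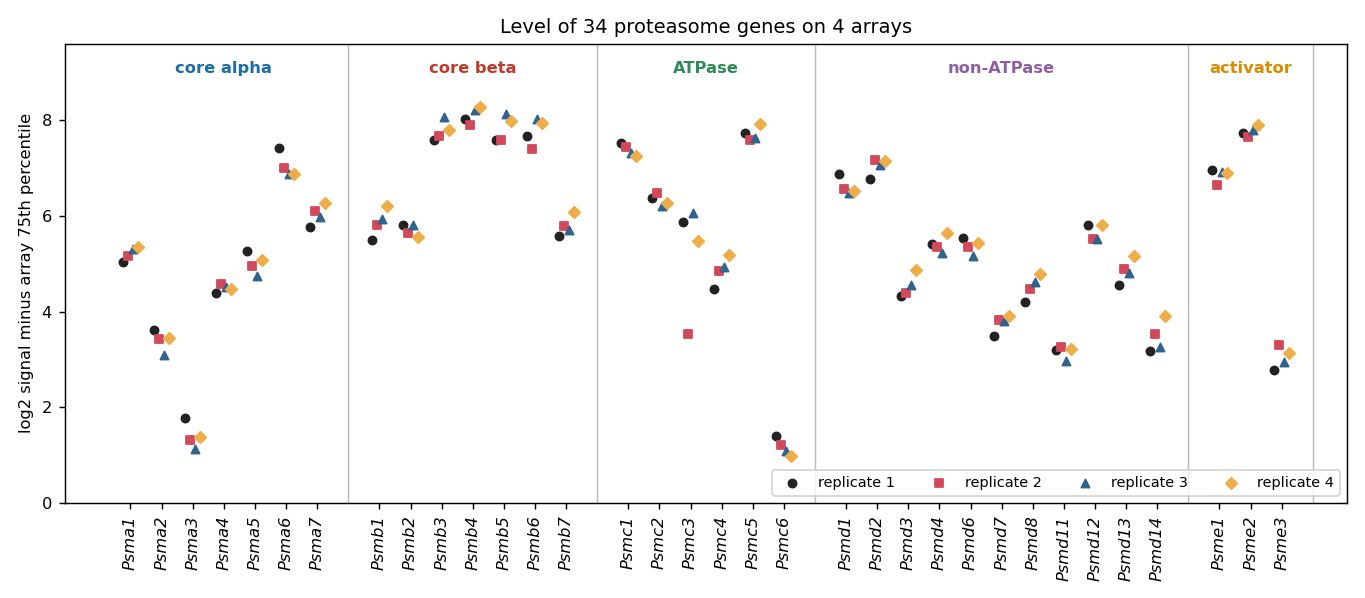
Level of each of the 34 proteasome genes on the 4 arrays, with the gene on the horizontal axis, grouped by role, and the log2 signal minus the 75th percentile of the array on the vertical axis. Each symbol is 1 array; the symbols of a gene lie close together except for Psmc3, at 3.53 on replicate 2 and at 5.47 or higher elsewhere.

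The promoters of these genes were compared by sequence. RefSeq promoter windows of the rat assembly GRCr8, 250 bases before to 50 after the annotated start, were matched for 30 of the 34 genes. There was no entry for Psma7, Psmd6, Psmd12 and Psmd14. Both strands were searched for 14 motifs, whose matches may share bases. TGANNNNGC holds every TGACNNNGC, which holds TGACTCAGC, and TGACG lies within TGACGTCA. The search gave CCGGAA, the core bound by ETS factors, in 15 of 30 proteasome promoters. It lay in 15.0% of all 33469 windows of this length and in 33.2% of the 5692 windows of genes above background. GGGCGG, the GC box, lay in 22 of 30, against 33.1% of all windows and 63.6% of those of genes above background. AAGATGGC, a core of the YY1 motif, lay in 7 of 30, against 3.17% and 6.36%. CCAAT, bound by NF-Y, lay in 15 of 30, against 37.5% and 39.9%.

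Elements linked to metals and oxidants were also searched. TGACNNNGC, the core of the antioxidant response element bound by NRF1 and NRF2, lay in 6 of 30 proteasome windows, against 12.1% of all windows and 15.3% of those of genes above background. The looser TGANNNNGC lay in 16 of 30 (40.5% and 44.1%) and the strict TGACTCAGC in 0 of 30 (0.415% and 0.474%). The metal response element core, TGCACNC or TGCGCNC, bound by the zinc sensor MTF1, lay in 9 of 30, against 24.2% and 35.8%. GAANNTTC, a pair of heat shock units, lay in 2 of 30 (8.59% and 5.60%), TATAAA in 4 of 30 (14.2% and 6.75%) and TGACGTCA, the cAMP response element, in 1 of 30 (1.83% and 3.34%). TGACG, a part of it, lay in 11 of 30 (21.2% and 35.3%), the palindrome of nuclear respiratory factor 1 in 1 of 30 (0.852% and 2.23%) and a motif of the ZNF143 type in 0 of 30 (0.275% and 0.773%). The sets of promoters printed with the roles were chosen after these counts were seen. The median GC content of the proteasome windows was 56.5%, between 51.7% over all windows and 60.7% over those of genes above background. A match is a run of letters and does not show that a factor binds there.

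The core alpha subunits differed in how they varied over the arrays. Psma3 had the largest SD of the 7, with levels of 1.77, 1.32, 1.12 and 1.37 on replicates 1 to 4. Psma2 stood at 3.61, 3.42, 3.10 and 3.44, Psma5 at 5.27, 4.96, 4.74 and 5.08. Psma6 stood at 7.43, 7.01, 6.88 and 6.88. All 4 were highest on replicate 1 and lowest on replicate 3, which for Psma6 tied with replicate 4 at this rounding. The non-ATPase genes Psmd1 and Psmd6 had the same order, and its share over all genes was not counted. Psma1, by contrast, was lowest on replicate 1, with levels of 5.03, 5.17, 5.30 and 5.35. Psma7, measured by a probe printed in 10 spots, was also lowest on replicate 1, at 5.77, 6.11, 5.99 and 6.28. Psma4, also lowest on replicate 1, hardly varied, at 4.40, 4.57, 4.52 and 4.48, with an SD of 0.07 that was the smallest of all 34 genes. The subunits of 1 ring thus differed in which array was highest, with SDs between 0.07 and 0.27 over the 7 genes. The median SD over all genes above background was 0.23. The deviations of those genes from their own 4-array means had 10th and 90th percentiles of -0.40 and 0.29 on replicate 1. On replicate 3 these percentiles were -0.25 and 0.29.

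The metal response element core lay in 5 of the 6 core alpha promoters with an entry, 0 of 7 core beta, 1 of 6 ATPase, 3 of 8 non-ATPase and 0 of 3 activator promoters. It lay in 24.2% of all windows and in 35.8% of those of genes above background. The nearest upstream match of each gene is shown for comparison, 5′ to 3′ on the strand of the gene, with the match in capitals, in windows that end before the annotated start.
Psma1 (GRCr8 chr1:177887980-177888029, minus strand): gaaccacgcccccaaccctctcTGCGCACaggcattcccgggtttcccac
Psma2 (GRCr8 chr17:55260566-55260615, minus strand): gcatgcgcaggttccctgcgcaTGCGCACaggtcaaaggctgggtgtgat
Psma3 (GRCr8 chr6:95219627-95219676, plus strand): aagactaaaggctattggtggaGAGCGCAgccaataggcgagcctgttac
Psma4 (GRCr8 chr8:64236464-64236513, plus strand): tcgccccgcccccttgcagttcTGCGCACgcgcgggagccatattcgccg
Psma5 (GRCr8 chr2:198584277-198584326, plus strand): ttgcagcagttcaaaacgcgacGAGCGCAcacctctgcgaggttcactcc
In Psma1, Psma2 and Psma4 the matched letters are the same, and in Psma3 and Psma5 the match reads on the opposite strand.

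The core beta subunits include the 3 genes of the constitutive proteolytic sites. Psmb5, which carries the chymotrypsin-like site, stood at 7.59, 7.59, 8.13 and 7.98 on replicates 1 to 4, a mean of 7.82 ± 0.28 (SD, n = 4). Psmb6, with the caspase-like site, stood at 7.67, 7.40, 8.02 and 7.95, a mean of 7.76 ± 0.29. Both were higher on replicates 3 and 4 than on replicates 1 and 2. The other Psmb6 probe stood at 6.78, 7.05, 7.39 and 7.36, with the same SD of 0.29 and the same pair of arrays on top. Psmb7, which holds the trypsin-like site, stood at 5.59, 5.79, 5.71 and 6.09, a mean of 5.79 ± 0.21, highest on replicate 4.

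The non-catalytic beta subunits complete the inner rings. Psmb1 had levels of 5.50, 5.81, 5.93 and 6.20, an SD of 0.29. Psmb3 stood at 7.59, 7.68, 8.07 and 7.81, and Psmb4, from 10 spots, at 8.02, 7.90, 8.22 and 8.29. Like Psmb5 and Psmb6, these 3 were below their own mean on replicates 1 and 2 and above it on replicates 3 and 4. Psmb2 did not share this order, at 5.81, 5.65, 5.81 and 5.56, and had the smallest SD of the role, 0.12.

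TGACNNNGC, the antioxidant response element core, lay in 12.1% of all windows and in 15.3% of those of genes above background. It lay in 1 of 6 core alpha, 0 of 6 ATPase, 2 of 8 non-ATPase and 0 of 3 activator promoters. Of the 7 core beta promoters 3 held it. Among the 3 are the genes of the chymotrypsin-like and caspase-like sites, which is why they are shown; capitals mark the motif.
Psmb2 (GRCr8 chr5:144254968-144255017, plus strand): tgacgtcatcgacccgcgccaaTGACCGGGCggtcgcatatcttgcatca
Psmb5 (GRCr8 chr15:32047412-32047461, minus strand): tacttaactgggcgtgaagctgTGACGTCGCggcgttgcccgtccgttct
Psmb6 (GRCr8 chr10:55737838-55737887, plus strand): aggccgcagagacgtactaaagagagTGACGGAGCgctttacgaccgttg
The match starts 68, 60 and 24 bases before the annotated start of Psmb2, Psmb5 and Psmb6. The looser TGANNNNGC lay in 40.5% of all windows and in 44.1% of those of genes above background. It lay in 7 of 7 core beta promoters and in 2 of 6 core alpha promoters. The ATPases had it in 1 of 6, the non-ATPase subunits in 6 of 8 and the activators in 0 of 3.

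The ATPases held the gene with the largest spread of the 34. Psmc3 stood at 5.87, 3.53, 6.07 and 5.47 on replicates 1 to 4, a mean of 5.24 ± 1.16 (SD, n = 4). Replicate 2 was the low array, and the SD of the other 3 was 0.30. The single Psmc3 spot lies in an area of the replicate 2 array where other spots were low as well. Deviations around this spot are from the median of the 4 arrays, centred on spots well above background on at least 3 arrays. Within 10 rows and 10 columns of the Psmc3 spot, 85 such spots carried no outlier flag on replicate 2. The same square held 127, 132 and 99 such unflagged spots on replicates 1, 3 and 4. On replicate 2 the 85 had a median deviation of -1.11, and 47 of them had a deviation below -1. By the same measure the Psmc3 spot itself deviated by -2.12 on replicate 2, and its deviation from its own 4-array mean there was -1.71. Nearer to it the neighbours were lower: their median on replicate 2 was -1.56 within 5 rows and columns and -0.3 within 20. On replicates 1, 3 and 4 the neighbours' medians within 10 rows and columns were 0.18, 0.19 and -0.11. With the local trend removed as planned, as the median deviation of all unflagged spots nearby, the SD of Psmc3 was 1.17. With the trend taken only from unflagged spots well above background on at least 3 arrays, a choice made after that result was seen, it was 0.56. The part of the array surface in the remaining spread was not tested.

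**Figure D2:**
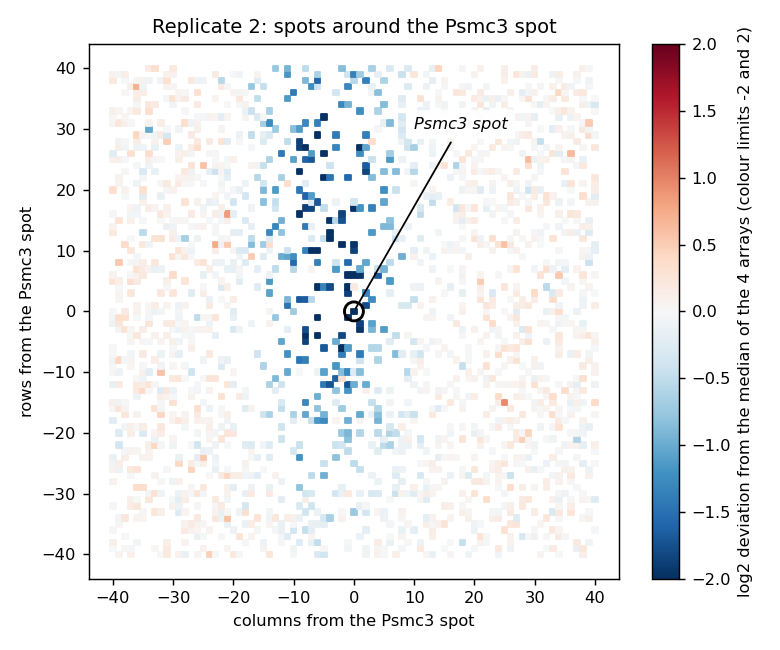
Spots around the Psmc3 spot on the replicate 2 array, with columns and rows counted from that spot on the axes and each spot coloured by its log2 deviation from the median of the 4 arrays. Spots well above background on at least 3 arrays and without an outlier flag on replicate 2 are drawn. A band of low spots (blue) runs through the Psmc3 spot, whose neighbours within 10 rows and columns have a median of -1.11.

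For the other 33 genes, with the neighbours' medians averaged over the spots of a gene, the surrounding deviation on replicate 2 was between -0.10 and 0.07, and on the other arrays between -0.11 and 0.09. The remaining ATPases had SDs between 0.12 and 0.30. Psmc1 stood at 7.52, 7.44, 7.31 and 7.25 and Psmc2 at 6.38, 6.49, 6.22 and 6.27, both with an SD of 0.12. Psmc5 had a mean of 7.73 ± 0.15 and Psmc6 of 1.17 ± 0.18 (SD, n = 4 each). Psmc4 differed more between arrays, at 4.47, 4.86, 4.93 and 5.19, an SD of 0.30. It was lowest on replicate 1, whereas Psmc1 and Psmc6 were highest there.

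The ETS core CCGGAA lay in 15.0% of all windows and in 33.2% of those of genes above background. It lay in 2 of 6 core alpha, 2 of 7 core beta, 5 of 8 non-ATPase and 1 of 3 activator promoters. Of the 6 ATPase promoters 5 held it. The 5 are shown so that the shared element can be compared within 1 ring of subunits; capitals mark the core on either strand.
Psmc1 (GRCr8 chr6:125122447-125122496, plus strand): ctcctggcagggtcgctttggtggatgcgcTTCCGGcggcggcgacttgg
Psmc2 (GRCr8 chr4:14162391-14162440, minus strand): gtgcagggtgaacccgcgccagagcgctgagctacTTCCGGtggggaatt
Psmc3 (GRCr8 chr3:97487565-97487614, plus strand): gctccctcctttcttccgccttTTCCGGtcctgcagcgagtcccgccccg
Psmc5 (GRCr8 chr10:91687445-91687494, plus strand): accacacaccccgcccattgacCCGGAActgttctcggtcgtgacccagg
Psmc6 (GRCr8 chr15:21022223-21022272, plus strand): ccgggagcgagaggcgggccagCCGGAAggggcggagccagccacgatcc
The core starts between 15 and 86 bases before the annotated start in these 5 genes. Psmc4 has no such match; it holds AAGATGGC, as does Psmc5.

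The non-ATPase subunits form the base scaffold and the lid of the regulatory particle. Psmd1 and Psmd2, the large scaffold subunits, had means of 6.61 ± 0.19 and 7.04 ± 0.18 (SD, n = 4 each). They varied in opposite ways: Psmd1 was highest on replicate 1, at 6.89 against 6.48 to 6.56 on the others, and Psmd2 was lowest there, at 6.78 against 7.06 to 7.18. Psmd4, a receptor for ubiquitin chains, stood at 5.41, 5.36, 5.22 and 5.64. Psmd14, the subunit that cuts ubiquitin chains from substrates, stood at 3.18, 3.53, 3.26 and 3.91, and its SD of 0.33 was the largest of the role. Psmd7, which pairs with Psmd14 in the lid, stood at 3.49, 3.83, 3.81 and 3.91, an SD of 0.18. Both were lowest on replicate 1 and highest on replicate 4. So were Psmd3, Psmd8 and Psmd13 in this role and Psma1, Psma7, Psmb1, Psmb7 and Psmc4 in others. Replicate 4 was the highest array for 7 of the 11 non-ATPase genes and for 2388 of the 6418 genes above background.

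The other lid subunits gave means of 4.54 ± 0.25 for Psmd3, 5.37 ± 0.16 for Psmd6, 4.52 ± 0.24 for Psmd8, 5.67 ± 0.17 for Psmd12 and 4.85 ± 0.25 for Psmd13 (SD, n = 4 each). Psmd11 had the smallest SD of the role, 0.13, with levels of 3.19, 3.26, 2.96 and 3.22. Of the 11 non-ATPase genes 10 were above their own mean on replicate 4, all except Psmd1. Of all genes above background 60.1% were. The mean deviation of the 11 on that array was 0.19 log2 units, and that of all genes 0.06. Of the 569 genes within the level range of the core beta genes, 436 were above their own mean there, with a mean deviation of 0.12. The median level of the 11 was 4.85, below that range. With the array percentile taken over detected probes, 8 of the 11 were above their own mean on replicate 4, against 47.7% of all genes, and 8 of 11 against 49.3% with quantile normalization. It was 7 of 11 against 37.7% with the median over all probes subtracted and 3 of 11 against 20.4% with no scaling.

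The activators had SDs between 0.10 and 0.23. Psme1 and Psme2, which assemble together into the interferon-inducible cap, each had a probe in 10 spots. Psme1 stood at 6.96, 6.65, 6.93 and 6.91, a mean of 6.86 ± 0.14 (SD, n = 4), with replicate 2 lowest and the other arrays within an SD of 0.03. Psme2 stood at 7.74, 7.66, 7.79 and 7.90, a mean of 7.77 ± 0.10. Psme3, which forms a nuclear cap of its own, stood at 2.78, 3.31, 2.94 and 3.14, a mean of 3.04 ± 0.23, and was highest on replicate 2, where the other activators were lowest.

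The spread between spots on 1 array can be set beside the spread between arrays. For the 4 genes printed in 10 spots, Psma7, Psmb4, Psme1 and Psme2, the SD between spots of an array lay between 0.03 and 0.15 log2 units in 16 values, after spots with an outlier flag were left out. Of those genes, Psma7 lost 2 spots on replicate 2 and 1 on replicate 4, Psmb4 lost 1 on each of these arrays, Psme1 lost 2 on replicate 3 and Psme2 lost 1 on replicate 2. The scanner software assigned the members' spots a median error of 10.0%, or 0.14 log2 units. The SD between arrays was below that for 6 of the 34 genes, and for 19.9% of all genes above background. An SD above 0.5 was found for 1 of the 34, Psmc3, and for 5.73% of all genes. It was found for 19 of the 569 genes within the level range of the core beta genes. On none of the 34 did 1 array stand apart from the other 3 by Dixon's ratio, which flagged 4.80% of all genes.

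**Figure D3:**
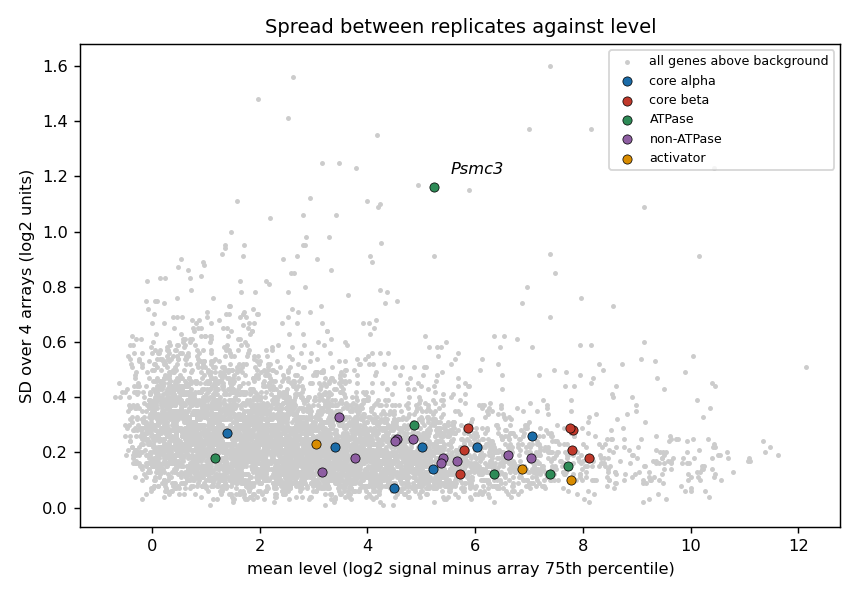
SD over the 4 arrays against mean level, both in log2 units, for the 6418 genes above background (grey) and the 34 proteasome genes coloured by role. The proteasome genes lie between 0.07 and 0.33 except Psmc3 at 1.16.

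The roles were then compared by the deviation of each gene from its own 4-array mean, which removes the probe. The 7 core beta genes had mean deviations of -0.15, -0.15, 0.15 and 0.15 on replicates 1 to 4, and the 7 core alpha genes 0.10, -0.01, -0.14 and 0.04. The difference of beta minus alpha, in which any scaling factor of an array cancels, was -0.25, -0.14, 0.29 and 0.11, with an SD of 0.24 over the arrays. The beta and alpha means thus differed most on replicates 1 and 3, in opposite directions. The alpha mean joins genes of both directions. On replicate 1, Psma2, Psma3, Psma5 and Psma6 deviated by 0.22, 0.37, 0.26 and 0.38. Psma1, Psma4 and Psma7 deviated by -0.18, -0.09 and -0.27 there. The median level was 7.76 for the beta and 5.01 for the alpha genes, and the part of signal level in the difference was not tested. Leaving out 1 other array at a time gave a beta minus alpha of -0.30 to -0.16 for replicate 1. It gave -0.22 to -0.05 for replicate 2, 0.20 to 0.32 for replicate 3 and 0.02 to 0.20 for replicate 4. The values nearest 0 came without replicate 3 for replicates 1 and 2 and without replicate 1 for replicates 3 and 4. All of these values kept their sign, as they did under the 9 other settings tried. Among those settings, no scaling, the percentile over detected probes and the median over all probes could not change this difference. Keeping flagged spots could change it only through Psma7 and Psmb4, and the mean of all probes only through Psmb6. This contrast and the order of arrays described next were picked after the values were seen.

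The core beta pattern was shared with other bright genes in part. Below their own mean on replicates 1 and 2 and above it on replicates 3 and 4 were 5 of the 7 core beta genes and 10 of all 34, against 22.3% of the genes above background and 36.2% of the 569 genes within the level range of the beta genes, 5.71 to 8.11. Those 569 genes had mean deviations of -0.09, -0.08, 0.06 and 0.12, in the same directions as the beta genes. The count for the beta genes was 4 of 7 with the percentile over detected probes, 1 of 7 with quantile normalization or the median over all probes, and 0 of 7 with no scaling, so it rests on the scaling. The part of signal level in the beta pattern was not tested.

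**Figure D4:**
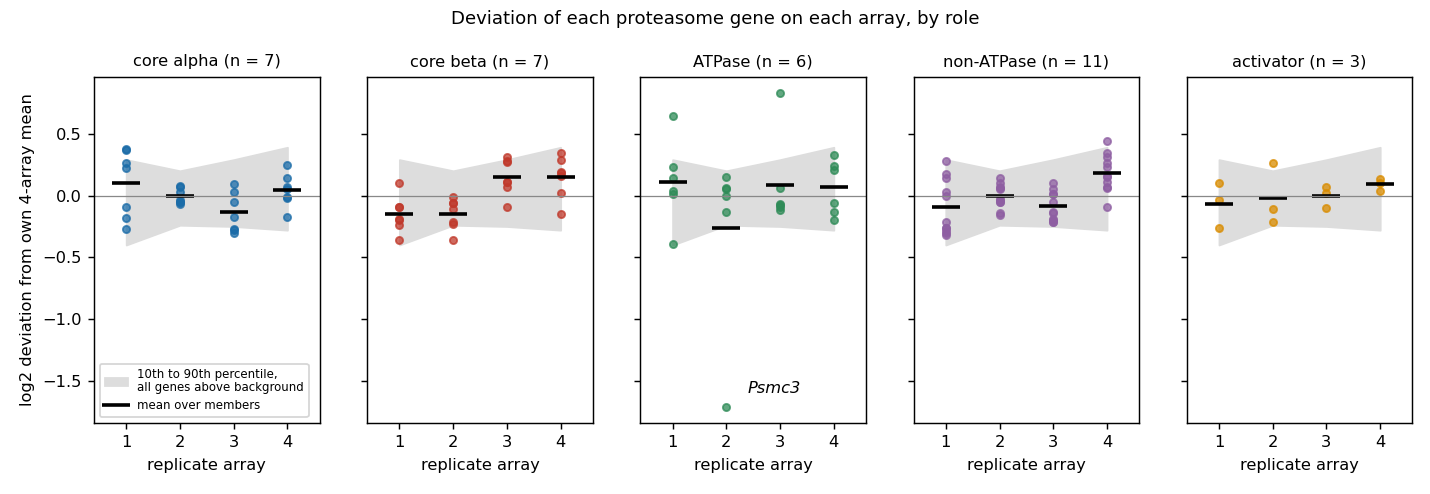
Deviation of each proteasome gene from its own mean over the 4 arrays, in log2 units, by replicate array and role. Points are genes, black bars the mean over the genes of a role, and the grey band holds the 10th to 90th percentile of all 6418 genes above background; the beta means are -0.15 on replicates 1 and 2 and 0.15 on replicates 3 and 4, and Psmc3 lies at -1.71 on replicate 2.

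Over all 34 genes the mean deviation was -0.03, -0.08, -0.01 and 0.12 on replicates 1 to 4, an SD of 0.08, and over all genes above background it was -0.06, -0.02, 0.02 and 0.06, an SD of 0.05. Without Psmc3 the proteasome mean was -0.05, -0.03, -0.03 and 0.11. On replicate 4, 26 of the 34 were above their own mean, against 60.1% of all genes. So were 436 of the 569 genes within the level range of the core beta genes, whose mean deviation there was also 0.12. The proteasome count was 20 of 34 against 47.7% of all genes with the percentile over detected probes and 19 against 49.3% with quantile normalization. It was 16 against 37.7% with the median over all probes and 6 against 20.4% with no scaling. The SD of the proteasome mean was 0.04 with the percentile over detected probes, with quantile normalization and without replicate 4. With no scaling it was 0.34, when the median of all genes above background deviated by 0.42, 0.12, -0.33 and -0.20 on the 4 arrays. With the median over all probes it was 0.20, when all genes deviated by -0.08, 0.35, -0.18 and -0.07. The ATPase mean deviated by -0.26 on replicate 2 and by 0.02 without Psmc3.

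Other genes of the pathway were taken from 8 lists, of which 43 genes are reported here and 35 had a named probe. Of these, 29 passed on each of the 4 arrays, 3 passed on at least 1 but not each, and 3 never passed, where 38.7% of all genes passed. The immunoproteasome subunits Psmb8, Psmb9 and Psmb10, which replace the catalytic beta subunits in immune cells, stood at 6.97 ± 0.29, 5.60 ± 0.27 and 6.06 ± 0.24 (SD, n = 4 each). All 3 were below their own mean on replicates 1 and 2 and above it on replicates 3 and 4, as were 22.3% of all genes above background and 36.2% of those in the level range of the constitutive beta genes. The count was 1 of 3 with the percentile over detected probes or quantile normalization and 0 of 3 with the median over all probes or no scaling. The testis form of an alpha subunit, Psma8, passed on no array.

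Further parts and regulators of the particle were mostly present. The ubiquitin receptor gene Adrm1 stood at 0.18 ± 0.43, the small lid subunit gene Sem1 at 6.62 ± 0.16 and the inhibitor gene Psmf1 at 4.16 ± 0.31 (SD, n = 4 each). The assembly factors Psmd5 and Psmd9 stood at 1.77 ± 0.26 and 4.12 ± 0.31, while Psmd10, another, passed on 3 of 4 arrays and the activator gene Psme4 on 2. The core assembly chaperone genes Pomp, Psmg2 and Psmg4 stood at 7.95 ± 0.12, 2.09 ± 0.21 and 4.71 ± 0.14, and the deubiquitinase gene Usp14 at 3.52 ± 0.30. Of the 2 Psmg4 probes 1 passed on each array.

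The genes reported here that feed ubiquitin and substrates to the particle all passed on each array, as did 38.7% of all genes with a symbol. The polyubiquitin gene Ubb stood at 10.01 ± 0.06 and Rps27a, which encodes ubiquitin fused to a ribosomal protein, at 9.93 ± 0.20 (SD, n = 4 each). All 8 shuttle and unfoldase genes passed, among them Vcp, the ATPase that extracts substrates from membranes and complexes, at 5.57 ± 0.24 and the shuttle gene Rad23b at 3.91 ± 0.16. The dimmest of the 8 were Ubqln2 at 0.16 ± 0.38 and Ubqln4 at 0.52 ± 0.24. Of the genes that control proteasome transcription through NRF1 and its relatives, Nfe2l2, which encodes NRF2, stood at 3.82 ± 0.06, the glycanase gene Ngly1 at 3.36 ± 0.18, Mafg at 2.97 ± 0.29 and Maff at 0.72 ± 0.16. The protease gene Ddi2 passed on no array and Mafk on 1. Maf, which was in the same list but encodes a larger MAF protein, passed on no array. Nfe2l1 itself, which encodes NRF1, had no probe tied to its symbol here. The stress-linked adaptors Zfand2a, Akirin2 and Txnl1 stood at 5.20 ± 0.14, 2.89 ± 0.40 and 2.73 ± 0.18. Whether probes for ubiquitin and proteasome transcripts also bind pseudogene copies was not tested, and their levels are uncertain to that extent.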

How the data were processed

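RNA of 4 replicate cultures was labelled with Cy3 and hybridised to 1-colour Agilent arrays, 1 per replicate, on 1 slide. The submitters' processing notes name Agilent Feature Extraction 11.0.1.1 as the authors' scanner software. The deposited processed signal and its error are linear intensities, background-subtracted and detrended within each array per the file headers and not scaled between arrays. The deposited spot flags are coded 0 or 1.

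On each array 4259 control spots were left out, as were 491 to 828 outlier-flagged spots. The log2 signals of the spots of a probe were averaged, and the 75th percentile over all 45598 probes of an array was subtracted. A probe passed on an array when a share of at least 0.5 of its spots was well above background; a gene passed where at least 1 probe passed on all 4. Accessions were matched without versions to RefSeq transcripts of GRCr8, which named 21109 probes. Where several probes shared a symbol, the probe of highest mean gave the level. Since there is 1 group, no test between groups was made; counts are set beside the same share over all genes. Every member may be named; values on each array are printed for the catalytic subunits, Psmd14, the activators and the members of largest and smallest SD in each role, and further members were added after their values were seen. The members, lists and settings were chosen with earlier results of these data known, and all 14 motifs that were searched are reported. Neighbour medians use spots within 10 rows and columns that pass on at least 3 arrays and carry no outlier flag on the array in question. Alternatives were other scalings, normexp with an offset of 50 on the median signals (limma 3.58.1, R 4.3.3), the mean of all probes, flagged spots kept, removal of the local trend (over all spots as planned, and over spots above background as added after the planned version barely moved Psmc3), other background rules and leaving out each replicate. The steps ran in Python 3.11.15 with numpy 2.4.6 and pandas 2.3.3 and were tested on simulated data. Some genes of the wider pathway lists are not reported here. The number of arrays limits the precision.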

Additional observations from a re-analysis of the deposited data

Results flagged for a closer look

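Dixon's ratio was computed for 77 values and 2 passed its critical value, so that 1 array stood apart; chance flags about 1 in 20. None of the 34 proteasome genes exceeded it by itself, while 4.80% of all genes above background did. The mean over the 6 ATPases did, with a ratio of 0.869: it deviated by -0.26 on replicate 2 and by 0.06 to 0.11 on the other arrays, and by 0.02 on replicate 2 without Psmc3. The shuttle gene Ubqln4 had a ratio of 0.910, with levels of 0.16, 0.62, 0.67 and 0.63.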

How the results depend on the processing

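The count of proteasome genes above background was 34 under each of the 8 alternatives run for it. The looser background flag, 3 of 4 arrays and each replicate left out could not lower it. Flagged spots kept and every probe required could have, the latter only for the 2 members with 2 probes. The median SD of 0.20 was 0.37 with no scaling and 0.31 with the median over all probes, and 0.17 to 0.22 with a replicate left out. The SD of the proteasome mean, 0.08, was 0.04 with quantile normalization, normexp or the percentile of detected probes, 0.34 with no scaling, 0.20 with the median over all probes and 0.04 to 0.10 with a replicate left out, the lowest without replicate 4. The cause was not tested. Of the SDs of the 34 genes, 29 were within 1.5 times their value with the percentile over detected probes, 25 with quantile normalization, 32 with the local trend removed as planned, 33 with the trend of spots above background removed and 11 with no scaling. Beta minus alpha kept its sign on each array in all 12 alternatives. For no scaling, the percentile over detected probes and the median over all probes this was fixed in advance, as array factors cancel. Keeping flagged spots could act only through Psma7 and Psmb4, and the mean of all probes only through Psmb6. The 12 were added after seeing the data, as were the settings without Psmc3 and the trend of spots above background. No paired analysis was possible because there is 1 group. Signals near background limit the dimmest members, Psmc6 and Psma3.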

Other observations

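In GRCr8, 4 of the 30 proteasome genes with a promoter entry have a named gene on the opposite strand whose start lies within 1000 bases before theirs. The same held for 7.44% of all windows and for 13.5% of those of genes above background, so the count is near the share among expressed genes. Psma2 has the mitochondrial ribosomal protein gene Mrpl32 at 210 bases, Psmc5 has Ftsj3 at 374, Psmd13 has the mitochondrial deacetylase gene Sirt3 at 647 and Psme2 has Rnf31, part of a ubiquitin ligase, at 872. These 4 neighbours gave a signal well above background on each array, as 38.7% of all genes with a symbol did. Their mean levels were 4.03 ± 0.52 for Mrpl32, 5.81 ± 0.15 for Ftsj3, 0.89 ± 0.22 for Sirt3 and 2.13 ± 0.32 for Rnf31 (SD, n = 4 each).

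The AAGATGGC match lay within the first 50 bases after the annotated start in 5 of the 7 proteasome genes that hold it: Psma2, Psmb6, Psmb7, Psmc5 and Psmd11. In Psmc4 and Psmd7 it lay before the start. Of all windows with a match 42.8% held it after the start, and 50.3% of the 362 such windows of genes above background did.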
